A study of Rattus rattus with 8 samples.

Results

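The genes described here are 10 rat genes that control how glucose enters a cell and whether it is burned: 4 glucose transporters (Slc2a1, Slc2a3, Slc2a4, Slc2a12), 2 hexokinases (Hk1, Hk2) and 4 pyruvate dehydrogenase kinases (Pdk1, Pdk2, Pdk3, Pdk4). They were taken by gene name from a table of 30957 genes, where each symbol had a single row. The RNA of 8 sorted samples had been sequenced, 4 labelled tetraploid (4n) and 4 labelled diploid (2n), all from cultured heart muscle cells (cardiomyocytes) of SD rat pups aged 1 to 3 days. The cultures behind all 8 samples had been enriched by differential adherence. They were kept for 24 h with insulin-transferrin-selenium and with AraC, which blocks DNA synthesis, at 0.2 mM. All were starved of serum and held at 1% oxygen for 48 h. They were stained with 2 µg/mL Hoechst 33342, a DNA dye, and sorted by ploidy; a 4n signal of such a dye does not tell a tetraploid nucleus from 2 diploid nuclei, a cell about to divide or 2 cells stuck together. A normoxic culture is not among the samples, so no level below is set against one. The groups share replicate numbers 1 to 4, described as biological replicates from independent experiments. The labels name the organism Rattus rattus, while the genome build, Rnor_6.0, is that of Rattus norvegicus.

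Glucose enters cells through carriers of the Slc2a family and is trapped inside by hexokinases, which add a phosphate to it. The pyruvate made from it is turned into acetyl-CoA for the mitochondrial citric acid cycle by the pyruvate dehydrogenase complex, which the kinases Pdk1 to Pdk4 switch off by phosphorylation. Heart muscle is known to change from Slc2a1 and Hk1 in the fetus toward the insulin-responsive carrier Slc2a4 and Hk2 after birth, with Pdk4 induced by fasting and fatty acids. Under low oxygen the hypoxia-inducible factor (HIF) is known to raise Slc2a1, Slc2a3, Hk2 and Pdk1, which speeds glycolysis and keeps pyruvate out of the mitochondria.

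Total counts lay between 14783521 and 21033772 per library. Genes of the mitochondrial chromosome took 3.71% of the counts in 4n replicate 1, between 24.1% and 25.9% in the other 4n libraries, and between 2.87% and 3.82% in the 2n libraries. The summed level of 10 cardiomyocyte markers, of which none was at 0, was 4103, 7771, 29644 and 10625 CPM in 4n replicates 1 to 4 and between 487 and 959 CPM in 2n. CPM, the usual measure of counts relative to library size, were computed here on sizes scaled by the TMM method. By both measures 4n replicate 1 was the 4n library nearest to the 2n libraries. Each of 10 cardiomyocyte markers was called higher in 4n by edgeR's quasi-likelihood test, among them Myl7, Nkx2-5, Actc1 and Myl3 by 4.36, 4.52, 4.52 and 4.20 on the log2 scale (adjusted p = 0.0252 for each in edgeR). With the replicate number as a block 9 of the 10 passed, and Myh6 did not (edgeR adjusted p = 0.0535). Without 4n replicate 4, or without any 1 of the 2n libraries, edgeR called 0 genes, so none of these markers passed there. Summed fibroblast markers stood at 29527 to 51619 CPM in 4n and 44355 to 57772 CPM in 2n, so fibroblast RNA was plentiful in both sorts of a culture labelled cardiomyocyte. In such bulk samples a different number of cells of a type and a different amount of RNA per cell cannot be told apart.

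Per length of transcript, the most abundant message of each family was Slc2a1, Hk1 and Pdk1 in 4n, and the same held in 2n. The deposited FPKM values (counts scaled by transcript length and by the library's total) allow levels of different genes to be set side by side. In 4n the mean levels were 77.4 FPKM for Slc2a1, 67.0 for Hk1, 44.4 for Pdk1, 23.9 for Hk2, 10.6 for Pdk2, 9.99 for Pdk3, 6.76 for Slc2a4, 3.01 for Pdk4, 0.957 for Slc2a12 and 0.0146 for Slc2a3. Each neighbour in that order overlapped the next over the 4 libraries, except Slc2a12 and Slc2a3. In 2n the order was the same apart from Pdk3 standing before Pdk2, with mean levels of 82.5, 67.8, 42.4 and 32.5 FPKM for Slc2a1, Hk1, Pdk1 and Hk2, and of 10.3, 5.24, 0.974, 0.785, 0.667 and 0.105 FPKM for Pdk3, Pdk2, Slc2a4, Pdk4, Slc2a12 and Slc2a3. There Hk2 was separate from Pdk3, Pdk3 from Pdk2, Pdk2 from Slc2a4, and Slc2a12 from Slc2a3, while the other neighbours overlapped.

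**Figure D1:**
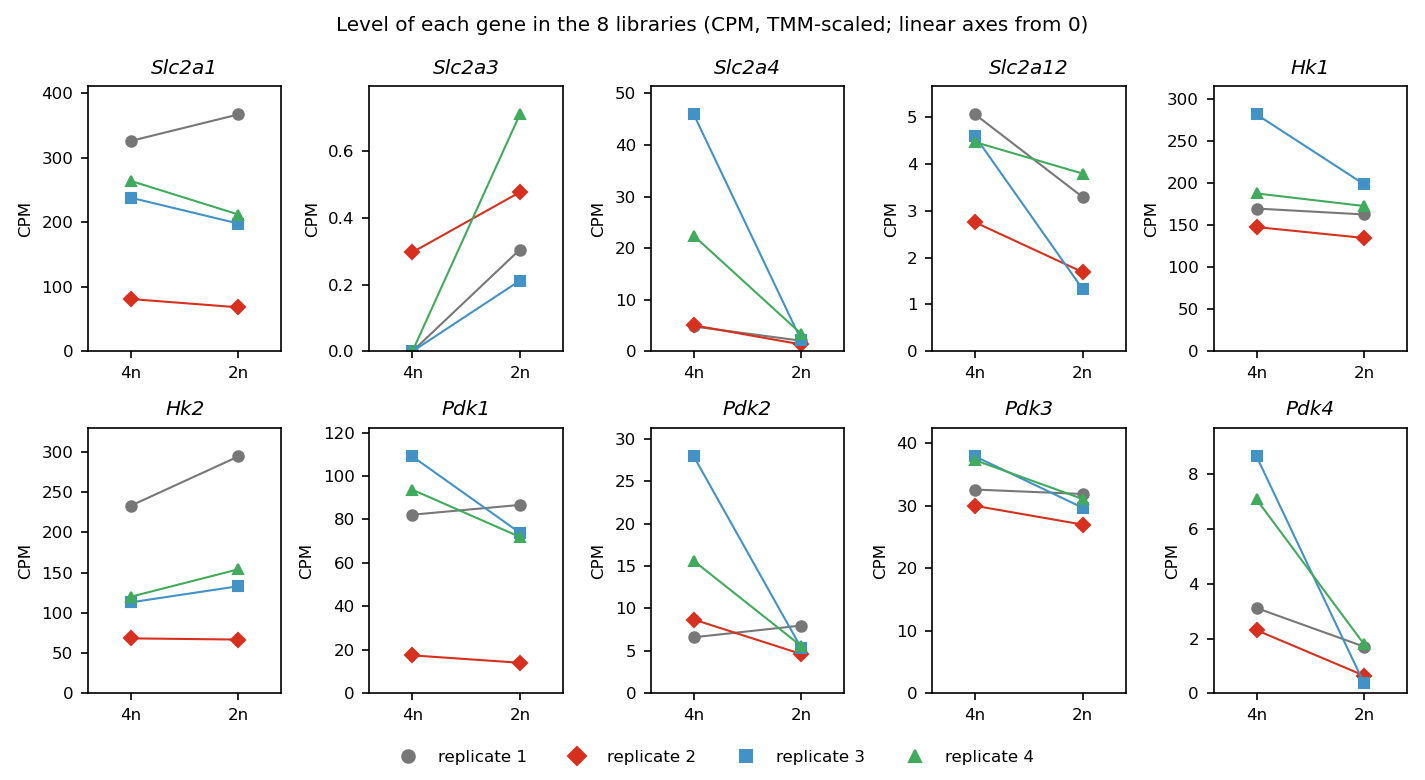
Level of each of the 10 genes in CPM (linear axis from 0) in the 4n and the 2n library of each replicate, with a line joining libraries of the same number and replicate 2 in red. Slc2a1, Hk2 and Pdk1 are set apart by replicate number, with Pdk1 at 17.5 and 14.1 CPM in replicate 2, while Slc2a4 and Pdk4 are higher in every 4n library than in any 2n library.

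Across all genes, edgeR called 347 of 12983 genes higher and 1 lower in 4n than in 2n (2.67% and 0.00770% at a Benjamini-Hochberg adjusted p under 0.05), and 554 and 79 (4.27% and 0.608%) with the replicate number as a block. Of the 10 genes, 9 had enough counts to be tested and Slc2a3 did not. None of the 9 passed in edgeR in either fit. With the block the edgeR adjusted p was 0.0580 for Slc2a4, 0.0660 for Pdk4, 0.115 for Slc2a12, 0.146 for Pdk1 and 0.147 for Pdk2. It was 0.168 for Hk2, 0.223 for Pdk3, 0.225 for Hk1 and 0.342 for Slc2a1. All 4n libraries lay above all 2n libraries for 2 of the 9 (Slc2a4 and Pdk4), against 7.68% of all genes tested, and below them for none, against 3.69%. In DESeq2, which called 926 genes higher (6.14% of the 15082 with an adjusted p), Slc2a4, Pdk2 and Pdk4 passed as higher in 4n.

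Slc2a4, the insulin-responsive glucose transporter of muscle and fat (GLUT4), on chromosome 10 from 56552983 to 56558487 in Rnor_6.0, had the largest difference of the 9. It stood at 4.83, 5.06, 45.9 and 22.4 CPM in 4n replicates 1 to 4, against 2.07, 1.35, 2.17 and 3.41 CPM in 2n. Every 4n library was above every 2n library, and the 4n libraries of replicates 3 and 4 were far above those of replicates 1 and 2. The means were 19.6 ± 19.4 CPM in 4n and 2.25 ± 0.855 CPM in 2n (SD, n = 4 each), and the log2 fold change was 3.11 ± 0.74 (SE), a fold of 8.66, at an edgeR adjusted p of 0.0646. This missed the threshold in the edgeR fit and passed it in DESeq2 (adjusted p = 5.21e-05). It also passed in edgeR without 4n replicate 1 (adjusted p = 0.0165, where 6.64% of all genes passed as higher), without 4n replicate 2 (0.0427 and 2.34%), and with the block without replicate 1 (0.0112 and 9.65%) or without replicate 3 (0.0103 and 4.29%). Over all 19 alternative settings the log2 fold change lay between 2.02 and 3.44 and the adjusted p of these tools between 5.21e-05 and 0.265.

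Slc2a1 (GLUT1), the carrier that most cells use for their basal uptake, on chromosome 5 from 138154673 to 138182897, was the main transporter in both groups. It was at 326, 81.1, 238 and 264 CPM in 4n replicates 1 to 4, against 367, 68.3, 198 and 212 CPM in 2n. The groups overlapped over their whole range, and the 4n and 2n libraries of a replicate were close to each other. The log2 fold change was 0.10 (SE 0.51), with an adjusted p of 0.937 in edgeR. Within replicates 1 to 4 the log2 difference, 4n minus 2n, was -0.17, 0.25, 0.27 and 0.31, and the sign of the fitted fold change turned to -0.19 without 2n replicate 2, to -0.12 without 4n replicate 1, and to -0.08 on FPKM values. On that scale the median log2 fold change of all genes was -0.26, against -0.01 in the edgeR fit.

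Slc2a12 (GLUT12), another carrier of muscle, on chromosome 1 from 24003625 to 24056373, was at 5.05, 2.75, 4.58 and 4.46 CPM in 4n replicates 1 to 4, against 3.29, 1.69, 1.33 and 3.79 CPM in 2n. It was higher in 4n in 4 of 4 replicates, but the groups overlapped and the log2 fold change of 0.74 ± 0.37 (SE) did not pass (edgeR adjusted p = 0.347). These levels rest on 25 to 94 counts per library. Slc2a3 (GLUT3), the carrier known from neurons, on chromosome 4 from 155408233 to 155631856, was barely detected. It had 0, 4, 0 and 0 counts in 4n replicates 1 to 4, against 5, 11, 4 and 15 counts in 2n, or 4 counts of 64490178 in all 4n libraries and 35 of 73112850 in all 2n libraries. A count of 0 allows up to 3 counts, which is 0.161, 0.215 and 0.219 CPM in 4n replicates 1, 3 and 4, so no fold was taken. The gene model spans 223624 bases and has 3 other genes of the table within it, Gdf3, Dppa3 and Nanog, each at 0 counts in all 8 libraries.

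As a share of the summed FPKM of the 4 transporters, Slc2a4 made up 1.61%, 6.35%, 17.5% and 8.57% in 4n replicates 1 to 4, against 0.621%, 2.10%, 1.20% and 1.73% in 2n. Slc2a1 made up 97.4%, 91.3%, 81.4% and 90.4% in 4n and between 95.9% and 98.7% in 2n. The ratio of Slc2a1 to Slc2a4 in FPKM was 60.4, 14.4, 4.64 and 10.5 in 4n replicates 1 to 4, against 159, 45.6, 81.6 and 56.0 in 2n. The share of Slc2a4 was larger in 4n than in 2n within each replicate, yet the 4n share of replicate 1 lay inside the 2n range. A share within a library does not depend on how libraries are scaled to each other, and it is given here as a description without a test.

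**Figure D2:**
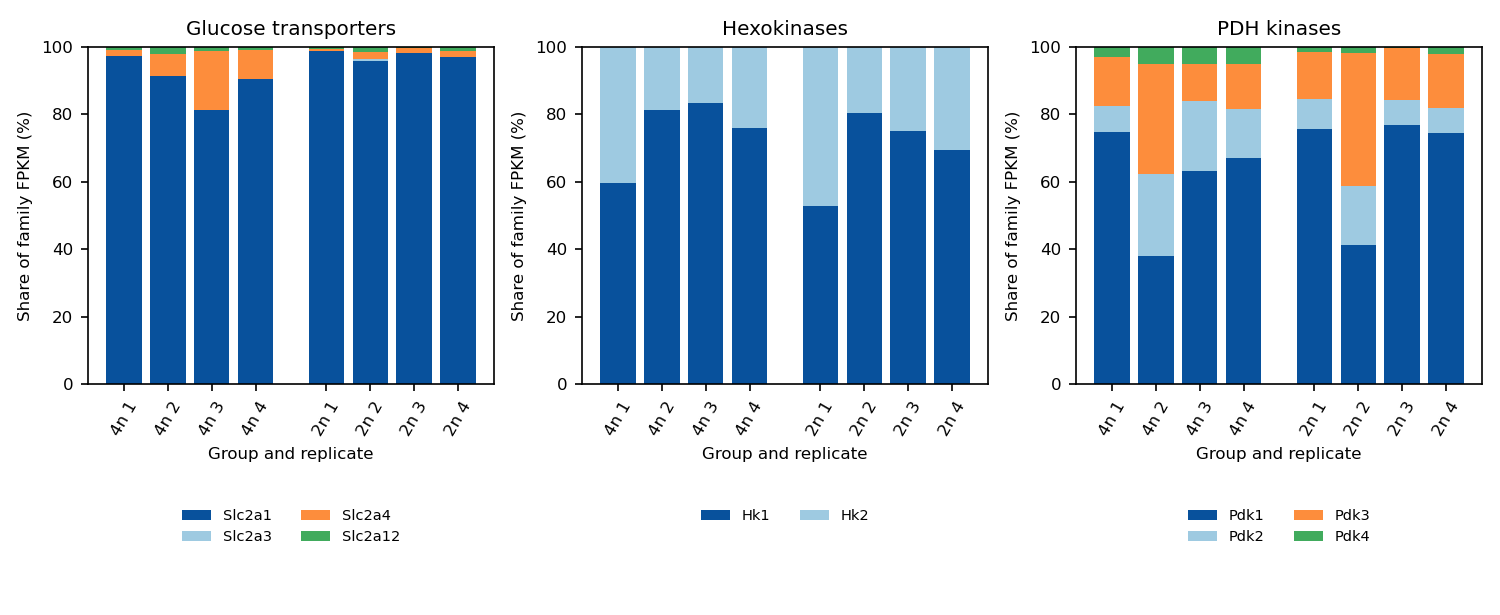
Share of each gene in the summed FPKM of its family (percent, stacked bars) in the 4n libraries, left, and the 2n libraries, right, of replicates 1 to 4. Slc2a4 reaches 17.5% of the transporters in 4n replicate 3, and Pdk1 takes 38.1% and 41.2% of the kinases in replicate 2 against 63.2% or more in every other library.

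Both hexokinases overlapped between 4n and 2n. Hk1, the hexokinase of most tissues, on chromosome 20 from 31912262 to 31956649, was at 170, 148, 282 and 188 CPM in 4n replicates 1 to 4, against 163, 135, 199 and 173 CPM in 2n, with a log2 fold change of 0.23 (SE 0.21) and an adjusted p of 0.606 in edgeR. It was higher in 4n in 4 of 4 replicates, by 0.06 to 0.51 on the log2 scale, and its sign turned on FPKM values (-0.04). Hk2, the insulin-regulated hexokinase of muscle, on chromosome 4 from 113559427 to 113610243, was at 233, 68.3, 113 and 120 CPM in 4n replicates 1 to 4, against 294, 66.8, 133 and 154 CPM in 2n, with a log2 fold change of -0.28 (SE 0.47) and an adjusted p of 0.800 in edgeR. In both groups its level in replicate 1 was far above that of every other replicate, and without 2n replicate 1 the log2 fold change was 0.18. Hk1 made up 59.7%, 81.4%, 83.5% and 76.0% of the summed hexokinase FPKM in 4n replicates 1 to 4, against 52.9%, 80.4%, 75.1% and 69.5% in 2n. That share was larger in 4n in 4 of 4 replicates, and the spread between replicates was wider than the difference between 4n and 2n.

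Among the 4 kinases, the differences between 4n and 2n were larger for Pdk4 and Pdk2 than for Pdk1 and Pdk3. Pdk4, the kinase induced by fasting, on chromosome 4 from 30546664 to 30556814, was at 3.12, 2.31, 8.66 and 7.09 CPM in 4n replicates 1 to 4, against 1.71, 0.651, 0.371 and 1.80 CPM in 2n. Its groups did not overlap, as with Slc2a4, and again replicates 3 and 4 were highest in 4n. The means were 5.29 ± 3.07 CPM in 4n and 1.13 ± 0.727 CPM in 2n (SD, n = 4 each); the log2 fold change was 2.22 ± 0.59 (SE), a fold of 4.67, with an edgeR adjusted p of 0.0920. It passed in DESeq2 (adjusted p = 0.00358) and in edgeR with the block without replicate 1 or without replicate 3 (edgeR adjusted p = 0.0183 and 0.0349). Over all 19 alternative settings the log2 fold change of Pdk4 lay between 1.56 and 2.62, and the adjusted p of these tools between 0.00358 and 0.273. The counts behind Pdk4 were low, between 7 and 121 per library.

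Pdk2, a kinase found in most tissues and abundant in heart, on chromosome 10 from 82839153 to 82852660, was at 6.61, 8.70, 27.9 and 15.6 CPM in 4n replicates 1 to 4, against 7.99, 4.64, 5.35 and 5.58 CPM in 2n. The 4n libraries of replicates 2, 3 and 4 were above all 2n libraries, and that of replicate 1 was within the 2n range and below its own 2n library. The log2 fold change was 1.32 ± 0.43 (SE), a fold of 2.49 that did not pass in edgeR (adjusted p = 0.158). It passed in DESeq2 (adjusted p = 0.0373), in edgeR without 4n replicate 1 (edgeR adjusted p = 0.0405), and in edgeR with the block without replicate 1 (edgeR adjusted p = 0.0106). Without 4n replicate 3 the log2 fold change was 0.80 (edgeR adjusted p = 0.350). Over all 19 alternative settings it lay between 0.72 and 1.58, and the adjusted p of these tools between 0.0106 and 0.402.

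Pdk1, a kinase known as a HIF target, on chromosome 3 from 58530870 to 58558027, was at 82.2, 17.5, 109 and 93.7 CPM in 4n replicates 1 to 4, against 86.7, 14.1, 73.9 and 72.0 CPM in 2n. The groups overlapped, and both libraries of replicate 2 stood far below the other 6. The log2 fold change was 0.30 (SE 0.61), with an adjusted p of 0.840 in edgeR, and it was -0.04 without 2n replicate 2. Pdk3, on chromosome X from 62836131 to 62903554, varied least of the 9 genes tested, at 32.6, 30.0, 37.9 and 37.3 CPM in 4n replicates 1 to 4, against 31.9, 27.0, 29.7 and 31.1 CPM in 2n. Its log2 fold change was 0.20 (SE 0.12), with an adjusted p of 0.432 in edgeR, and it was -0.05 on FPKM values.

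Of the summed kinase FPKM, Pdk4 made up 2.84%, 5.04%, 5.04% and 5.10% in 4n replicates 1 to 4, against 1.50%, 1.91%, 0.388% and 1.87% in 2n, so its smallest 4n share was above its largest 2n share. The share of Pdk2 was 7.74%, 24.4%, 20.9% and 14.4% in 4n, against 8.99%, 17.6%, 7.20% and 7.47% in 2n, and the groups overlapped. Pdk1 had the largest share of FPKM in all 8 libraries, and in replicate 2 Pdk3 came close to it, at 32.5% against 38.1% for Pdk1 in 4n and 39.3% against 41.2% in 2n. As shares of counts, which do not allow for length, Pdk3 was ahead in replicate 2, at 51.3% against 29.9% for Pdk1 in 4n and 58.2% against 30.3% in 2n.

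**Figure D3:**
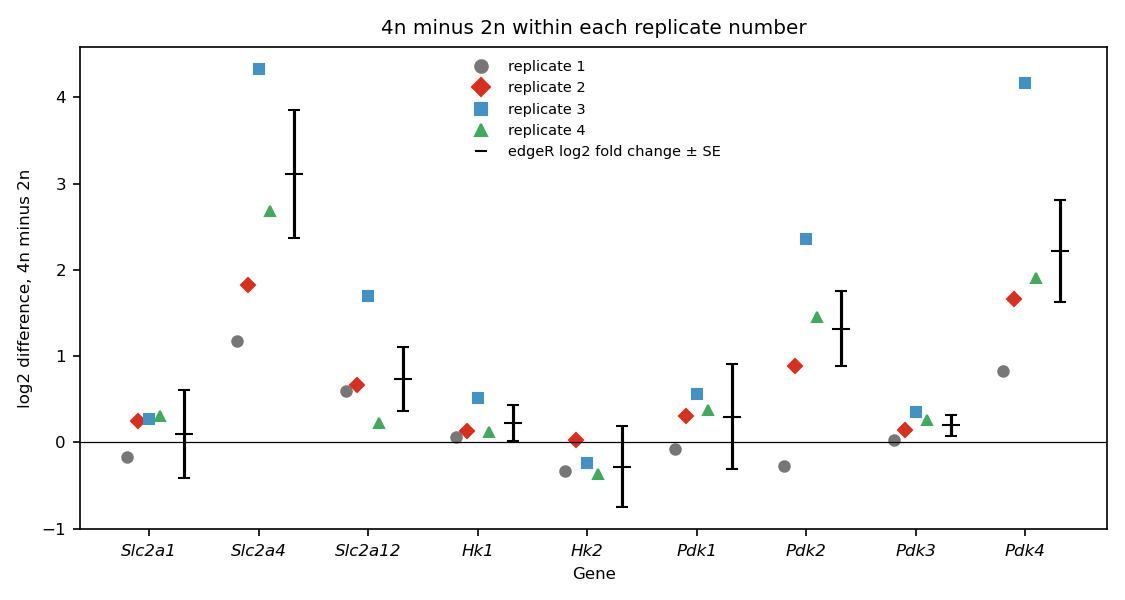
Log2 difference in CPM, 4n minus 2n, within each replicate number for the 9 genes tested, with the edgeR log2 fold change and its standard error as a black bar. The bar is from the fit without the replicate block, which ignores the pairing, so it also holds the spread between experiments. Slc2a4, Slc2a12, Pdk4, Hk1 and Pdk3 lie above 0 in 4 of 4 replicates and differ most in replicate 3, at 4.33, 1.70, 4.17, 0.51 and 0.35. Slc2a1, Hk1, Hk2, Pdk1 and Pdk3 stay within 0.56 of 0.

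The level of Slc2a4 and of Pdk2 followed the same order over the 4n libraries as the summed cardiomyocyte markers, with replicate 1 lowest, then 2, 4 and 3. Per 1000 CPM of those markers, Slc2a4 stood at 1.18, 0.651, 1.55 and 2.11 CPM in 4n replicates 1 to 4, against 2.16, 2.76, 2.98 and 3.72 CPM in 2n. Pdk2 stood at 0.941 to 1.61 CPM per 1000 marker CPM in 4n, against 6.09 to 9.54 in 2n, and Pdk4 at 0.292 to 0.759 against 0.508 to 1.96. Slc2a1, with no call between the groups, stood at 8.02 to 79.4 in 4n against 140 to 383 in 2n. Relative to the markers, every 4n library was below every 2n library for Slc2a4, Pdk2 and Slc2a1 alike, and the groups overlapped for Pdk4; the marker sum that divides these values was itself larger in every 4n library. The part of the markers in the higher CPM of these genes was not tested. The 6 endothelial markers in the table summed to 65.9, 72.8, 87.2 and 357 CPM in 4n replicates 1 to 4 and to between 28.9 and 55.8 CPM in 2n. None of the 6 passed in edgeR without the block, and 4 passed as higher with it, against 4.27% of all genes tested. Tek went the other way, at a mean of 19.7 CPM in 4n and 22.9 CPM in 2n (log2 fold change -0.21), and was a large part of the 2n sum. None of the 6 was at 0 in all libraries. The 5 adipocyte markers, of which Retn was at 0, summed to 5.80, 1.41, 3.29 and 38.7 CPM in 4n replicates 1 to 4. In 2n they summed to 1.10, 0.521, 0.636 and 3.74 CPM, so the sum was higher in 4n in 4 of 4 replicates. In 4n that sum was of Fabp4 alone. Adipoq, Plin1 and Lep were at 0 in all 4n libraries, with means of 0.0434, 0.0271 and 0.0907 CPM in 2n. Fabp4, a fatty acid carrier of fat and capillary cells and the one adipocyte marker with enough counts to be tested, had a log2 fold change of 3.19 (edgeR adjusted p = 0.196, and 0.00864 with the block). The part of endothelial and adipocyte cells in the result was not tested.

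**Figure D4:**
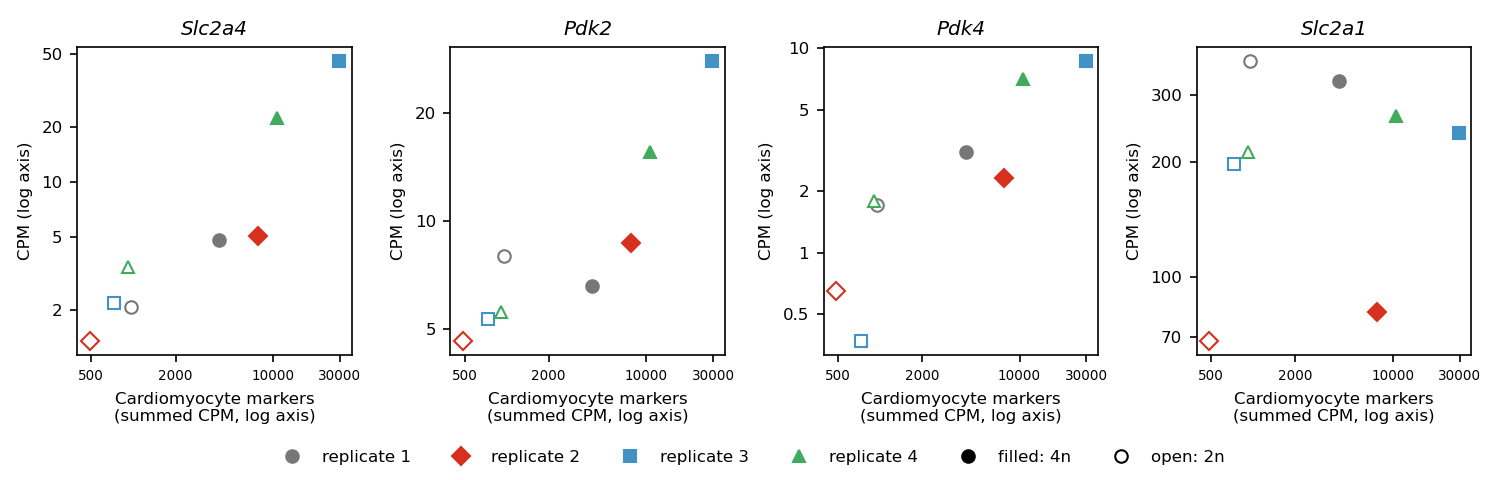
CPM of Slc2a4, Pdk2, Pdk4 and Slc2a1 against the summed CPM of 10 cardiomyocyte markers (both axes logarithmic), with filled points for 4n, open points for 2n and a colour per replicate. The 4n libraries lie to the right, between 4103 and 29644 marker CPM, and Slc2a4 is highest where the markers are highest, whereas Slc2a1 is lowest in replicate 2 of both groups.

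Replicate 2 stood apart from replicates 1, 3 and 4 in the genes known as HIF targets, and did so in 4n and 2n alike. It is a single experiment with 1 library per group, and it was singled out with earlier results of these data known, so its values are a description with no test. Pdk1 was at 17.5 CPM in 4n replicate 2, against 82.2 to 109 CPM in the other 4n libraries, and at 14.1 CPM in 2n replicate 2, against 72.0 to 86.7 CPM in the other 2n libraries. The log2 difference, replicate 2 minus the mean of the other replicates, was -2.42 in 4n and -2.45 in 2n, where the other replicates had an SD of 0.20 and 0.15. Averaged over both groups, Pdk1 ranked 33 from the lowest among the 12983 genes tested.

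Slc2a1 came next, with a log2 difference of -1.75 in 4n and -1.86 in 2n (rank 105 from the lowest). Its libraries of replicate 2, at 81.1 CPM in 4n and 68.3 CPM in 2n, lay below the lowest of the other replicates, 238 CPM in 4n and 198 CPM in 2n. For Hk2 the difference was -1.10 in 4n and -1.44 in 2n (rank 297), though the other replicates varied by an SD of 0.58 and 0.61, largely through replicate 1. Hk1 and Pdk3 were lowest in replicate 2 as well, by a smaller step: -0.49 in 4n and -0.39 in 2n for Hk1, and -0.26 and -0.20 for Pdk3. In all, 5 of the 9 genes tested were lowest in replicate 2 in both groups, against 11.9% of all genes tested, and none was highest in both, against 10.9%.

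Slc2a4, Pdk4, Pdk2 and Slc2a12 were not lowest in replicate 2 in both groups. Slc2a4 had a log2 difference of -1.74 in 4n and -0.83 in 2n, and its rank from the lowest by the mean of both, 291, was next to that of Hk2; its 4n level of 5.06 CPM in replicate 2 was above that of replicate 1. Pdk4, at -1.28 in 4n and -0.64 in 2n (rank 574), was lower in 2n replicate 3 than in 2n replicate 2. Pdk2, at -0.70 and -0.41, and Slc2a12, at -0.74 and -0.57, also kept replicate 2 within the range of the others in one of the groups. Slc2a3 was too low for a comparison. The difference was -1 or less in both groups for 3 of the 9 genes (Slc2a1, Hk2 and Pdk1), against 2.26% of all genes tested. Without replicate 1 Hk2 was at -0.77 in 4n and -1.10 in 2n, and so not among them.

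**Figure D5:**
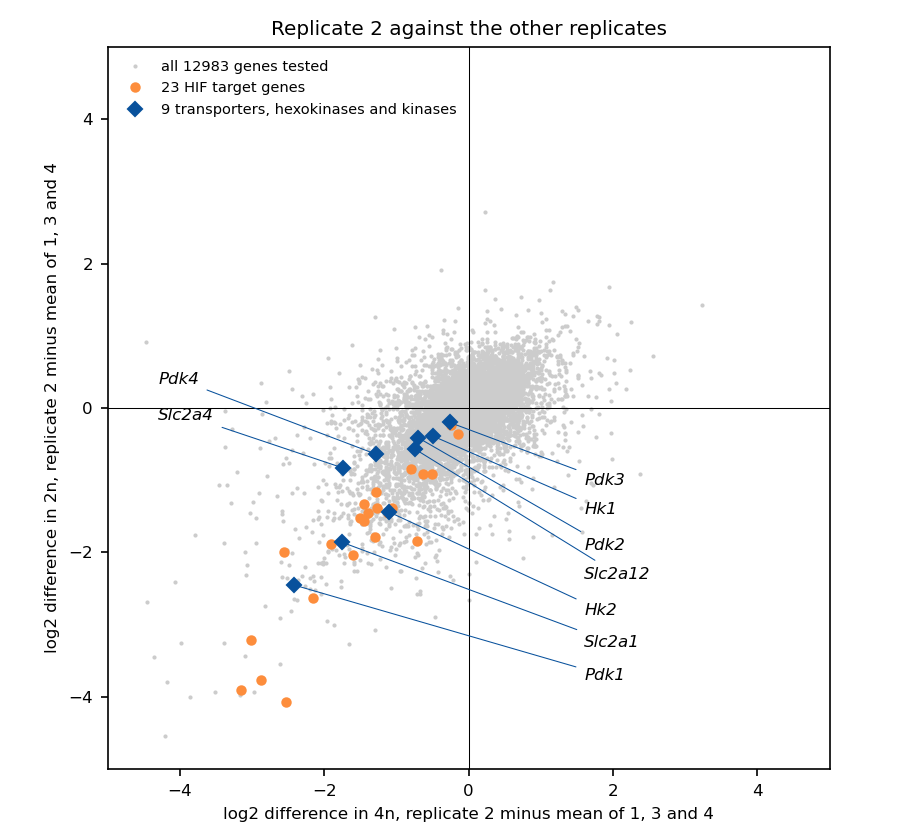
Log2 CPM of replicate 2 minus the mean of replicates 1, 3 and 4 in 4n (horizontal axis) and in 2n (vertical axis) for all 12983 genes tested in grey (2 genes lie beyond the axes), 23 HIF target genes in orange and 9 transporters, hexokinases and kinases in blue. Pdk1, Slc2a1 and Hk2 lie among the HIF target genes at the lower left, and Pdk3 lies near the centre, at -0.26 and -0.20.

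For Slc2a1, Hk2 and Pdk1 the step between experiments was larger than the step between sorts. The 4 experiments, each averaged over its 4n and 2n library, spanned 2.21, 1.95 and 2.51 on the log2 scale for Slc2a1, Hk2 and Pdk1, while the size of the difference between 4n and 2n within an experiment averaged 0.25, 0.24 and 0.33. Slc2a4, Pdk2 and Pdk4 were the other way round, with spans of 1.90, 0.93 and 1.45 and mean sizes of the 4n minus 2n difference of 2.50, 1.24 and 2.14. For Hk1, Slc2a12 and Pdk3 the span was again the larger, at 0.74, 0.89 and 0.26 against 0.20, 0.80 and 0.20. A span runs from the lowest to the highest of 4 means, so it is not the same measure as a mean size. Over the 8 libraries the log2 CPM of Slc2a1 correlated with that of Pdk1 at r = 0.94 and of Hk2 at 0.90, and that of Slc2a4 with Pdk2 at 0.95, Pdk3 at 0.92, Pdk4 at 0.90 and Hk1 at 0.77, against 0.31 between Slc2a1 and Slc2a4. These r values are descriptions over 8 libraries that come in 4 pairs from the same experiments.

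Other HIF targets had the same placement of replicate 2. Of 23 tested from a list of 24, 21 were lowest in replicate 2 in both groups, against 11.9% of all genes, and 17 had a difference of -1 or less in both, against 2.26%. Replicate 2 was singled out with earlier results of these data known, which may have included HIF targets. These counts are therefore a description and not independent support. The median difference of the list was -1.39 in 4n and -1.52 in 2n. Vegfa, the vascular growth factor gene, had -1.30 in 4n and -1.79 in 2n, Ldha, a lactate dehydrogenase, -1.51 and -1.52, and Pgk1, a glycolytic kinase, -1.45 and -1.56. Between 4n and 2n, 0 of the 23 passed in edgeR in either direction, where 2.67% of all genes tested passed as higher and 0.00770% as lower. The median log2 fold change was -0.03, against -0.01 over all genes tested. With the block 1, Ero1l, passed as lower (edgeR adjusted p = 0.0450), against 0.608% of all genes tested. The messages of the oxygen-regulated HIF subunits themselves did not share the low levels of replicate 2: Hif1a had 0.24 in 4n and 0.21 in 2n, and Epas1 0.64 and 0.65. Summed smooth muscle and pericyte markers were highest in replicate 2, at 10209 CPM in 4n and 9700 CPM in 2n, against 5539 to 6448 and 5839 to 7309 CPM in the other replicates. Of the 7 markers, 4 were highest in replicate 2 in both groups. Rgs5 went the other way, with differences of -1.06 in 4n and -0.59 in 2n. In 2n the summed cardiomyocyte and endothelial markers were lowest there, at 487 and 28.9 CPM. The adipocyte sum was lowest in replicate 2 in both groups, at 1.41 CPM in 4n and 0.521 CPM in 2n. It followed Fabp4, with differences of -2.59 in 4n and -2.34 in 2n. Adipoq, Lep and Plin1, with at most 4 counts in any library, had 1.33, 0.86 and -0.37 in 2n and were at 0 in 4n. Epicardial markers were at 63.8 CPM in 4n replicate 2, as in 4n replicate 3, and lowest in 2n replicate 2 at 66.0 CPM, and the epicardial marker Msln had differences of -2.35 in 4n and -1.80 in 2n. The part of these cell types in the low levels of replicate 2 was not tested.

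The machinery that the kinases act on was examined through a list of 10 genes, drawn up for the pyruvate dehydrogenase complex, its phosphatases and pyruvate entry. The list also holds Bckdk, the kinase of another complex, the branched-chain keto acid dehydrogenase, with a log2 fold change of 0.21. None of the 10 passed between 4n and 2n in edgeR, where 2.67% of all genes tested passed as higher and 0.00770% as lower. Of the 10, 9 had positive fold changes, with a median of 0.69, while 6254 of all 12983 genes tested had positive fold changes, with a median of -0.01. Mpc1, a subunit of the mitochondrial pyruvate carrier, was at 98.9 ± 64.4 CPM in 4n and 30.2 ± 7.01 CPM in 2n (SD, n = 4 each), which is 1.71 (SE 0.44) as a log2 fold change. It did not pass without the block (edgeR adjusted p = 0.0840) and passed with it (edgeR adjusted p = 0.0492). Pdp1, a phosphatase that reverses the action of the kinases, had a log2 fold change of 0.06 (edgeR adjusted p = 0.881). In replicate 2 none of the 10 was lowest in both groups, against 11.9% of all genes tested. Pdha1, the subunit that the kinases phosphorylate, was not analysed here.

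Of 17 tested genes of Slc2a4 storage and insulin-stimulated traffic, none passed between 4n and 2n in edgeR. Over all genes tested 2.67% passed as higher and 0.00770% as lower. Of the 17, 8 had positive fold changes, against 6254 of all 12983 genes tested, and the median was -0.03, against -0.01. Txnip, which restrains glucose uptake, had a log2 fold change of 0.13 (edgeR adjusted p = 0.888), and 4 of the 17 were lowest in replicate 2 in both groups, against 11.9% of all genes tested. Of 5 tested genes among 13 other glucose carriers and hexokinases, none passed. Slc2a2, the transporter of liver and pancreatic islet, was at 0 in all 8 libraries. Among 16 tested regulators of these genes, 1 was called higher in 4n, against 2.67% of all genes tested. It was Ppargc1a, a coactivator known to drive mitochondrial genes and Slc2a4 in muscle. Its level was 9.66 ± 8.40 CPM in 4n and 0.672 ± 0.459 CPM in 2n (SD, n = 4 each). The log2 fold change was 3.83 (SE 0.72), with an adjusted p of 0.0306 in edgeR. The call of Ppargc1a was lost on leaving out any 1 of the 2n libraries or 4n replicate 4 (edgeR adjusted p from 0.0667 to 0.121, log2 fold changes from 3.49 to 4.37). It was also lost on leaving out replicate 2 from both groups (edgeR adjusted p = 0.137), and in the block without replicate 2 or replicate 4 (edgeR adjusted p = 0.101 and 0.143). In each of these fits edgeR called 0 genes in all, so the loss is not particular to Ppargc1a.

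The genes whose log2 CPM over the 8 libraries was most like that of Slc2a1, by Pearson's r among 9594 named genes with a mean of at least 5 CPM, were Spr, Kdm4b, G0s2, Eno2 and Ptgis, with r from 0.97 to 0.98. For Slc2a4 they were Naprt1, Mmp15, Wfdc1, Vps37b and Fgf1, with r from 0.98 to 0.99. Since these genes were picked for their likeness over the same libraries, their own differences between 4n and 2n follow from the choice and are not given.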

How the data were processed

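The alignment used HISAT2 2.0.4 and the rat build Rnor 6.0, according to the submitters' processing notes. Which program counted the reads, and whether by strand, is not given in the sources used here. Raw counts per gene and FPKM values were deposited side by side. For 11164 genes with at least 20 counts the deposited FPKM were the count over the library's total, times a factor fixed for the gene; the total includes mitochondrial genes, so FPKM of other genes are lower where that share is large.

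Counts were tested with edgeR 4.0.16 (R 4.3.3): filterByExpr, TMM scaling, a robust quasi-likelihood fit with group as factor, two-sided, with Benjamini-Hochberg adjustment over all 12983 genes tested and a threshold of 0.05. Each SE of a log2 fold change was derived from the test, as the size of the fold change divided by the square root of its F statistic. Alternatives included DESeq2 1.42.0 and limma 3.58.1 on log2(FPKM + 0.1). CPM use TMM-scaled sizes, and log2 CPM a prior count of 2; in the smallest library 1 CPM is 14.8 counts before scaling. Floors and counts of 0 cover counting error only.

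Same-numbered libraries deviated together, at r = 0.43, 0.58, 0.27 and 0.65 for replicates 1 to 4, and their descriptions begin with the same code. The numbers thus pair the libraries. Fold changes, SEs and adjusted p-values are from the fit without this block unless the block is named. That fit ignores the pairing: the SEs of Slc2a1, Hk2 and Pdk1 were 0.51, 0.47 and 0.61 in it, and 0.11, 0.10 and 0.12 with the block. No 2 libraries of a group agreed within sampling noise (chi-square per degree of freedom from 34.9 to 396).

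The 10 genes, the comparison of replicate 2 and the lists were chosen with earlier results of these data known. Named beside the 10 are up to 4 genes past the threshold per list, a fixed set of 8 (Hif1a, Epas1, Pdha1, Pdp1, Ldha, Pgk1, Vegfa, Txnip) and the 5 most similar to Slc2a1 and to Slc2a4, leaving out symbols that are only identifiers. Mpc1, Ero1l and Fabp4, which passed only with the block, were named after their values were seen, as were Myh6, Msln, Slc2a2, Tek and Bckdk. Ero1l and Tusc5 are older symbols matched to the lists. Lists of macrophage, epicardial, adipocyte and erythroid markers were also summed. Summed CPM ran from 4.01 to 16.3 in 4n and 3.76 to 7.81 in 2n for macrophage and blood markers, from 63.8 to 113 in 4n and 66.0 to 117 in 2n for epicardial markers, and were at most 0.142 in any library for erythroid markers.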

Additional observations from a re-analysis of the deposited data

Results flagged for a closer look

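Over the 10 genes in each group of 4 libraries, 20 sets of values in all, 1 library stood apart from the other libraries of its group. Slc2a3 was at 0.297 CPM in 4n replicate 2, while the other 4n libraries were at 0. This value rests on 4 counts. The criterion used, Dixon's gap at either end of a set, marks about 1 set in 20 by chance where values are continuous. With the other 4n libraries tied at 0, any count in 4n replicate 2 would have been marked, so that rate does not hold for Slc2a3.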

How the results depend on the processing

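The direction of Slc2a4, Slc2a12, Pdk2 and Pdk4 was the same under all 19 alternatives run. The log2 fold change of Slc2a1 was -0.08 on FPKM values and lay between -0.19 and 0.51 over the fits that left out a library. Hk1 and Pdk3 were at -0.04 and -0.05 on FPKM values, a scale that moved the median of all genes to -0.26, against -0.01 in CPM. Leaving out a library put Hk2 between -0.69 and 0.18 and Pdk1 between -0.04 and 0.62. The cause of these changes of sign was not tested.

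Of the 9 genes tested, 3 passed as higher in DESeq2, between 0 and 2 when a library was left out, 0 with the replicate block, and in the block 3 without replicate 1 and 2 without replicate 3. Over all genes, 554 passed as higher and 79 as lower with the replicate block, 926 and 81 in DESeq2. Lower genes numbered 14 in limma on FPKM and 2 without mitochondrial genes. Leaving out a library gave 0 to 870 higher and 0 to 90 lower genes. The 0 came without 4n replicate 4 or any 1 of the 2n libraries, and the 870 without 4n replicate 1. In the block, 1254 and 399 passed without replicate 1, 558 and 50 without replicate 3, and 0 and 0 without replicate 2 or without replicate 4. Without replicate 2 and without the block, an alternative added after seeing the data, edgeR passed 0 and 0 genes; at a p under 0.05 before adjustment 1479 were higher and 431 lower. In the other edgeR fits with no calls, 1304 to 1962 genes were higher and 353 to 1304 lower at that p.

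Replicate 2 was lowest in both groups for 1545 genes, and for 2066 to 2594 when another replicate was left out, where fewer libraries are compared. Over 6 alternatives the difference of replicate 2 lay between -2.54 and -2.32 in 4n and between -2.50 and -2.37 in 2n for Pdk1. It varied more for Hk2 in 4n (-1.29 to -0.77), Slc2a4 in 4n (-2.64 to -1.03), Pdk2 in 4n (-1.25 to -0.22) and Pdk4 in 2n (-1.29 to -0.30). With counts in place of FPKM, the share of Hk1 was 60.8% in 4n and 53.9% in 2n, against 75.2% and 69.5% by FPKM. Slc2a3, Slc2a12 and Pdk4 are limited by their low counts.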
